A study of Mus musculus with 2 samples.

Results

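The circadian clock genes described here are 10 genes taken by name: Dbp, Tef, Per2, Per3, Nr1d1, Nr1d2, Ciart, Cry1, Arntl and Clock. They are 10 of the 54838 gene identifiers counted in single adrenal endothelial cells of mice. A gene counted as measured when it had at least 50 unique molecular identifiers (UMIs, each standing for 1 captured RNA molecule) over the endothelial cells of both libraries. By that limit 8 of the 10 were measured, among 12278 measured genes in all. Dbp fell just short with 49 UMIs and Ciart had 21.

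The clock is a feedback loop of transcription. Arntl (also called Bmal1) and Clock encode a pair of activators that bind E-box motifs and switch on the Per and Cry genes, Nr1d1 and Nr1d2, Ciart, and the PAR bZIP factors Dbp and Tef, which in turn act through D-box motifs. The PER and CRY proteins block the activators, and the NR1D1 and NR1D2 receptors (REV-ERBs) repress Arntl through ROR/REV-ERB response elements (RREs). In mouse tissues Arntl and the E-box targets therefore peak at opposite times of day, and the adrenal cortex is known for a strong daily rhythm of glucocorticoid release. Tissue collected at different times of day can differ in these genes for that reason alone.

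The series held 1 library of CD31+ CD45- cells from the adrenal glands of VEGF/LysM mice and 1 from wild-type (WT) mice, all female and 12 weeks old. The question behind it was how VEGF-A from macrophages shapes adrenal endothelial cells. LysM is the lysozyme M gene (Lyz2), which is active in macrophages and neutrophils, so the changed gene is named for a cell type other than the one sorted. The labels and design text do not state the alleles behind the name VEGF/LysM, the strain, how many mice were pooled or the time of day at collection. With 1 library per genotype, the genotype, the animals, the hour of collection and the library cannot be told apart, and no test between genotypes is possible. All intervals below are 95% intervals that cover counting error only.

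The VEGF/LysM library held 3524 endothelial cells with 8904042 UMIs and a median of 2291.5 UMIs per cell. The WT library held 5677 endothelial cells with 7400950 UMIs and a median of 1153. The VEGF/LysM cells thus held more UMIs each, and levels are given as CPM, the UMIs of a gene over the summed UMIs of the cells, scaled to a total of 1000000. The 10 endothelial markers checked, among them Pecam1 and Cdh5, were all present, at 263 to 3332 CPM in VEGF/LysM and 298 to 3294 CPM in WT endothelial cells. Vegfa had 0 UMIs in the macrophage-like cells of the VEGF/LysM library and 0 in those of the WT library, so these counts do not check the genotype label. The libraries shared 10 cell barcodes.

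Some of the members' promoters carry motifs through which the loop is known to run. RefSeq promoter windows (GRCm38.p6, 250 bases before to 50 after the annotated start) were on hand for 9 members, not for Per2. The letters searched, on both strands, were the E-box CACGTG, which 7.15% of 32851 promoter windows hold, its variant CACGTT (4.68%), the D-box TTATGTAA (0.938%) and the RRE GTAGGTNA (2.14%). The windows printed are those with the most matches per motif and that of Nr1d1, the REV-ERB gene to which the vessel-type results below return. They are written 5′ to 3′ on the gene's strand, with matches in capitals.
Ciart, chr3:95882179-95882478, minus strand: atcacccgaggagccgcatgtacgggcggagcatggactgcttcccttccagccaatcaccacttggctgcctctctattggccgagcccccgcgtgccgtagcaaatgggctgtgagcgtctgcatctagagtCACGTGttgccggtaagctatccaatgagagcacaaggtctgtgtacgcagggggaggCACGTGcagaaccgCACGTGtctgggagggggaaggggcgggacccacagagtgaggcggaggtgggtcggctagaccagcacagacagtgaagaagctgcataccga
Per3, chr4:151044616-151044915, minus strand: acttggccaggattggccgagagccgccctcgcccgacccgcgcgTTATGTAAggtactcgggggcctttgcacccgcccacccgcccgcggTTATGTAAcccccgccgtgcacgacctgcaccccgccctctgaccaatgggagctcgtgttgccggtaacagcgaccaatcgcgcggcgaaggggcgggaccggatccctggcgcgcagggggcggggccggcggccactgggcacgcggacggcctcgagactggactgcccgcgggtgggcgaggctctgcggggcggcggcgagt
Nr1d1, chr11:98775328-98775627, minus strand: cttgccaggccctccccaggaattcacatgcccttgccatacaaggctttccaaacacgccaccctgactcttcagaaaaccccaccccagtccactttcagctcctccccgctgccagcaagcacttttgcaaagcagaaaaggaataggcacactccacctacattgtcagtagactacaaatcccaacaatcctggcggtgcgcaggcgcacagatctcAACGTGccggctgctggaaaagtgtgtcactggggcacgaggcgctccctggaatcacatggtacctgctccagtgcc
Arntl, chr7:113207261-113207560, plus strand: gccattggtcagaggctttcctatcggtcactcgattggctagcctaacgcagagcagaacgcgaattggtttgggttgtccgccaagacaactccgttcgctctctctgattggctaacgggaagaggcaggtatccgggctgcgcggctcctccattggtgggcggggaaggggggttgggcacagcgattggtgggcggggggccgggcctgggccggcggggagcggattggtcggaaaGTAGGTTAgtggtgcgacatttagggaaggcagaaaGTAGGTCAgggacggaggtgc
Ciart, a repressor of the activator pair, held E-boxes that begin 116, 58 and 44 bases before its start. Per3, a Period repressor, held D-boxes at 205 and 158 bases before its start. Nr1d1 held the E-box variant, read on the opposite strand as AACGTG, 28 bases before its start. The Arntl window held RREs 7 bases before and 29 bases after the start, the motif through which NR1D1 and NR1D2 are known to repress Arntl. The motif letters were chosen after the promoters were seen, and the RRE letters are those that both Arntl sites share. The matches are therefore a description and no test against the shares of all windows. Of the windows not printed, Tef held an E-box, and Cry1 an E-box and a variant E-box. The windows of Dbp, Nr1d2 and Clock held none of these letters, which says nothing of sites elsewhere in those genes. In all, 3 of the 6 target genes with a window held a canonical E-box or a D-box.

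In endothelial cells the clock genes were present in both libraries, and none differed between VEGF/LysM and WT beyond the limit used. The limit was a log2 ratio of at least 0.32 in size with the whole counting interval on the same side of 0. It was passed by 0 of the 8 measured members, beside 13.4% of all 12278 measured genes (6.47% higher and 6.93% lower) and 15.5% of the 4190 genes with as many UMIs as the measured target and late repressor members. The median log2 ratio (VEGF/LysM over WT) of the 8 measured members was 0.17, beside -0.03 over all measured genes. By size alone, with no interval, 2 members were past 0.32 and higher (Tef and Per2), beside 9.90% of all measured genes and 14.0% of the 4190 count-matched genes higher by the same rule.

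The D-box activators Dbp and Tef pointed in opposite directions and neither passed. Dbp, the member whose RNA swings most widely over the day in many mouse tissues, had 21 UMIs (2.36 CPM) in VEGF/LysM and 28 UMIs (3.78 CPM) in WT endothelial cells. Its log2 ratio was -0.68 (-1.57 to 0.19). Tef had 69 UMIs (7.75 CPM) in VEGF/LysM and 42 UMIs (5.67 CPM) in WT, a log2 ratio of 0.45 (-0.12 to 1.04). Both intervals include 0, and that of Dbp reaches from a ratio of 0.337 to one of 1.14.

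The Period genes, whose proteins close the negative arm, were rare. Per2 had 39 UMIs (4.38 CPM) in VEGF/LysM and 24 (3.24 CPM) in WT, a log2 ratio of 0.43 (-0.34 to 1.23). Per3 had 51 UMIs (5.73 CPM) in VEGF/LysM and 36 (4.86 CPM) in WT, a log2 ratio of 0.24 (-0.41 to 0.89). Ciart was the rarest, with 11 UMIs (1.24 CPM) in VEGF/LysM and 10 (1.35 CPM) in WT. Its log2 ratio was -0.13 (-1.50 to 1.26), and at such counts a modest change was not detectable.

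The REV-ERB genes were better counted. Nr1d1 had 82 UMIs (9.21 CPM) in VEGF/LysM and 56 (7.57 CPM) in WT, a log2 ratio of 0.28 (-0.22 to 0.80). Nr1d2 had 164 UMIs (18.4 CPM) in VEGF/LysM and 157 (21.2 CPM) in WT, a log2 ratio of -0.20 (-0.53 to 0.12). Nr1d1 overlaps Thra on the opposite strand, and no source used here states whether strand was used in counting, so reads of the pair may not be told apart. Cry1, the Cryptochrome repressor that peaks late in the cycle, had 165 UMIs (18.5 CPM) in VEGF/LysM and 128 (17.3 CPM) in WT. Its log2 ratio of 0.10 (-0.24 to 0.44) has an interval that ends at a 1.36-fold higher level.

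The activators gave the most UMIs and so the narrowest intervals. Arntl had 841 UMIs (94.5 CPM) in VEGF/LysM and 691 (93.4 CPM) in WT, a log2 ratio of 0.02 (-0.13 to 0.16). Clock had 1396 UMIs (157 CPM) in VEGF/LysM and 1264 (171 CPM) in WT, a log2 ratio of -0.12 (-0.23 to -0.01). The Clock interval just misses 0, but the ratio of 0.918 is short of the limit. Long genes as a group sat slightly low in the VEGF/LysM library, and genes about as long as Arntl and Clock had a median log2 ratio of -0.05. The part of this in the Clock value was not tested.

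**Figure D1:**
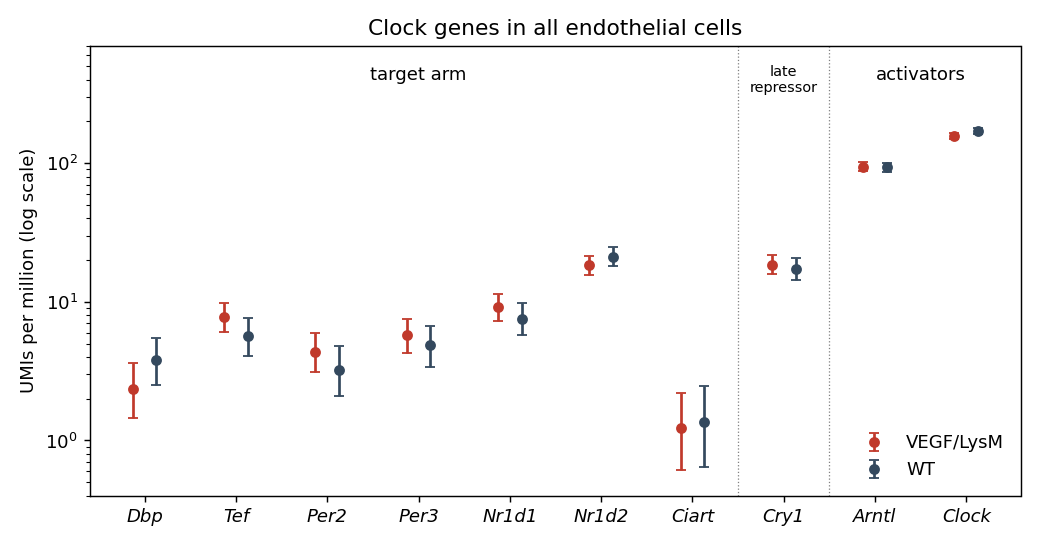
Level of each clock gene in all endothelial cells, in CPM (log axis), for VEGF/LysM (left of each pair) and WT. Points are 1 library each and bars are exact 95% counting intervals; the bars overlap for all 10 genes, and levels of genes of different length are not comparable on this axis.

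**Figure D2:**
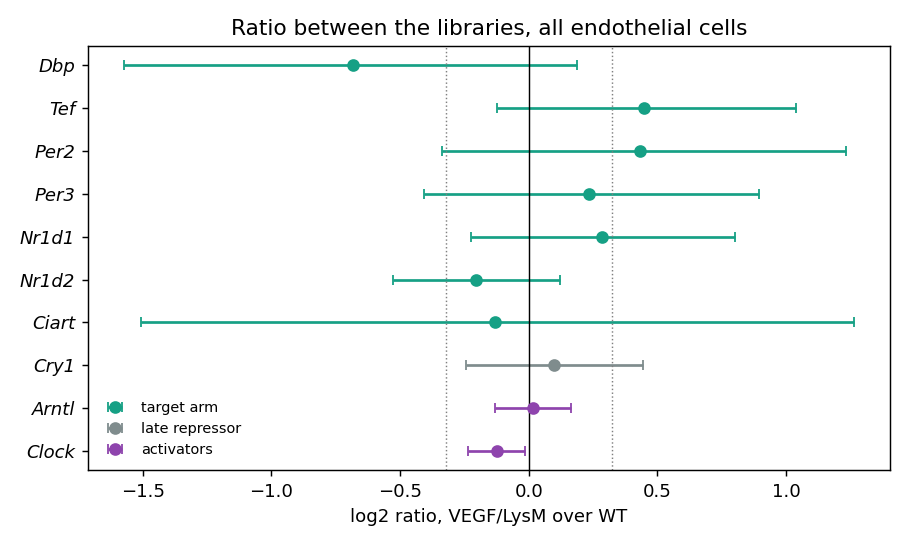
Log2 ratio of each clock gene, VEGF/LysM over WT, in all endothelial cells, with 95% counting intervals; dotted lines mark 0.32 and -0.32. Intervals cross 0 for all genes but Clock, whose interval of -0.23 to -0.01 lies within the dotted lines.

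Levels can be set side by side between genes only per length, and their order then depends on the length used. Per kilobase of the longest annotated transcript, Arntl led with 23.6 CPM in VEGF/LysM and 23.4 in WT, ahead of Clock with 16.1 in VEGF/LysM and 17.5 in WT. Per kilobase of gene body, Clock led with 1.65 CPM in VEGF/LysM and 1.80 in WT, and the short gene Nr1d1 (1.24 in VEGF/LysM, 1.02 in WT) stood above Arntl (0.886 in VEGF/LysM, 0.875 in WT). Per2 was the lowest member per kilobase of gene body, at 0.101 CPM in VEGF/LysM and 0.0748 in WT. No label or header used here states whether intronic reads were counted, so neither order can be preferred.

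The balance between the arms of the loop does not depend on the total used for scaling. The 7 target genes (Dbp, Tef, Per2, Per3, Nr1d1, Nr1d2 and Ciart) summed to 437 UMIs (49.1 CPM) in VEGF/LysM and 353 UMIs (47.7 CPM) in WT endothelial cells. The 2 activators summed to 2237 UMIs (251 CPM) in VEGF/LysM and 1955 UMIs (264 CPM) in WT. Target genes thus made up 16.3% (14.96 to 17.8) of the UMIs of both arms in VEGF/LysM and 15.3% (13.8 to 16.8) in WT, an odds ratio of 1.08 (0.926 to 1.26). With cells thinned to 1000 UMIs each, the odds ratio was 1.34 (1.05 to 1.72), the one setting in which the interval left 1. It was 1.22 (0.999 to 1.48) without Nr1d2 and 1.17 (0.987 to 1.39) with a stricter cell filter. With Per1, Cry2, Hlf, Bhlhe41 and Npas2 added to the arms it was 0.996 (0.886 to 1.12). With Arntl as the only activator it was 1.02 (0.853 to 1.21), and with Clock as the only activator 1.12 (0.953 to 1.32). Both of these choices were added after the data were seen. Some settings, such as equal weighting of cells, give no interval and so could not leave 1.

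Because many cells lacked any clock UMI, shares of cells were compared after thinning each cell to 1000 UMIs, which left 3246 VEGF/LysM and 3571 WT cells. Clock was then seen in 13.7% of VEGF/LysM and 15.3% of WT cells, where the unthinned shares were 29.2% in VEGF/LysM and 19.3% in WT. Arntl was seen in 8.26% of thinned VEGF/LysM and 8.71% of thinned WT cells. Any of the 7 target genes was seen in 4.90% (4.18 to 5.70) of VEGF/LysM and 4.03% (3.41 to 4.73) of WT cells. The unthinned gap for Clock runs the other way from the thinned one, alongside the higher UMI count per VEGF/LysM cell. No cell type in these data is known to lack clock RNA, so no share of cells in a type without the genes can be set beside these.

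Within single cells, no link between the arms was detectable at this depth. Among thinned VEGF/LysM cells, 4.56% of those with an activator UMI and 4.99% of those without held a target UMI. Among thinned WT cells the same shares were 4.03% with and 4.03% without an activator UMI.

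The endothelial cells fell into 9 vessel types with at least 100 cells in each library. The clock genes were left out of the clustering that made them, so their levels did not shape the types. Arterial-like, capillary-like and tip-like cells were named from markers, and 6 clusters rich in Plvap, a protein of the diaphragms of fenestrated vessels, are called by their leading genes. For some of these, vessel type is a loose name that may stand for a state of the cells. The leading genes of the Fos- and Adamts1-rich cluster included Fosb, Junb and Egr1, and those of the Ifit1-rich cluster Ifit3, Isg15 and Ifit2. The balance of the arms covered a wide range over these types. Target genes took 6.49% to 22.6% of the UMIs of both arms over the types in VEGF/LysM and 9.42% to 23.8% in WT.

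Capillary-like cells were among the types with the largest target share, at 22.0% (18.5 to 25.9) in VEGF/LysM and 21.3% (16.7 to 26.4) in WT. Nr1d1 alone gave 45 of the 112 target UMIs there in VEGF/LysM and 26 of the 61 in WT. The large share in capillary-like cells thus rests in good part on 1 gene and does not describe the target arm as a whole. Similar shares stood in the Npr3- and Cyp26b1-rich cluster (22.6% in VEGF/LysM, 21.4% in WT) and in arterial-like cells (20.6% in VEGF/LysM, 23.8% in WT). In the Npr3- and Cyp26b1-rich cluster Nr1d1 gave 9 of the 59 target UMIs in VEGF/LysM and 2 of the 51 in WT. In arterial-like cells it gave 5 of 39 in VEGF/LysM and 6 of 24 in WT. The Bgn- and Sema3d-rich cluster was among the lowest, at 6.49% (4.01 to 9.85) in VEGF/LysM and 9.89% (7.33 to 12.97) in WT. The Sdk1- and Chrm3-rich cluster was close to it, at 8.48% (5.71 to 12.0) in VEGF/LysM and 9.42% (6.40 to 13.2) in WT. In each library the intervals of these 2 clusters lie apart from that of capillary-like cells. Between the libraries, the odds ratio of target to activator UMIs ran over the 9 types between 0.576 in the Igfbp5- and Tbxa2r-rich cluster and 1.52 in tip-like cells, with 4 types above 1, 5 below it and no interval that left 1.

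**Figure D3:**
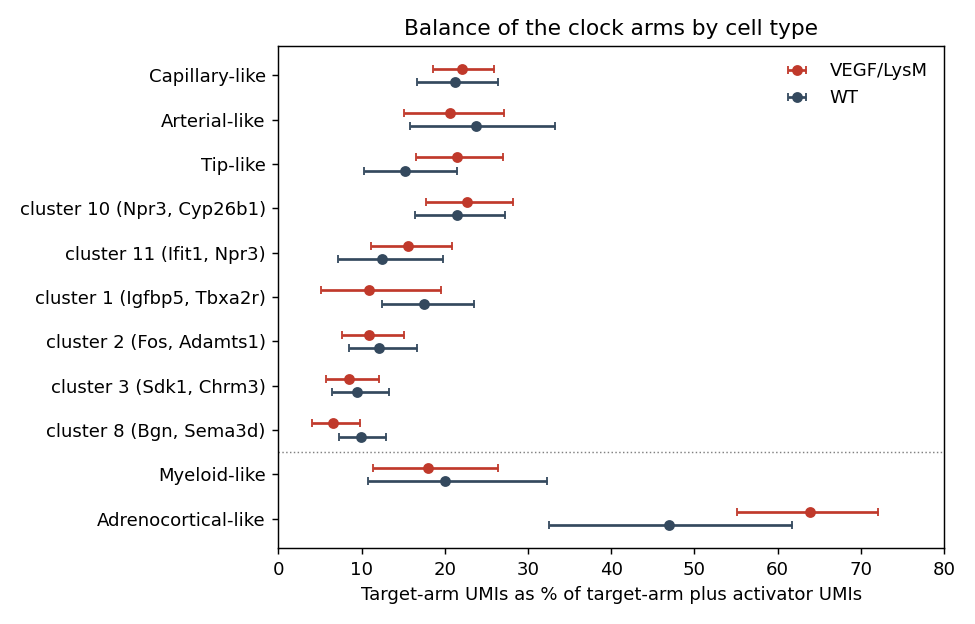
Target-gene UMIs as a percentage of target plus activator UMIs in each vessel type and in 2 non-endothelial classes, VEGF/LysM above WT, with exact 95% counting intervals. The libraries overlap in every type, while the types range over 6.49% to 22.6% in VEGF/LysM and 9.42% to 23.8% in WT; adrenocortical-like cells stand highest.

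Nr1d1 was higher in capillary-like cells than in other endothelial cells in both libraries. It had 45 UMIs (28.8 CPM) in VEGF/LysM capillary-like cells, against 5.04 CPM in the other VEGF/LysM endothelial cells, a ratio of 5.72 (3.62 to 9.08). It had 26 UMIs (28.1 CPM) in WT capillary-like cells, against 4.63 CPM in the other WT endothelial cells, a ratio of 6.06 (3.44 to 10.6). Its opposite-strand neighbour Thra was higher there as well, by 1.71 in VEGF/LysM (181 against 106 CPM) and 1.78 in WT (205 against 115 CPM), a smaller ratio than that of Nr1d1. Nr1d1 was the 1 measured member of 8 that was higher in capillary-like cells in both libraries, beside 9.0% of all measured genes, so the count says nothing of the members as a group.

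At the other end, Nr1d1 was nearly absent from 2 Plvap-rich clusters. In the Sdk1- and Chrm3-rich cluster it had 0 UMIs in VEGF/LysM and 1 in WT, and the ratio over other endothelial cells was at most 0.324 in VEGF/LysM and 0.686 in WT by the upper ends of the intervals. In the Bgn- and Sema3d-rich cluster it had 0 UMIs in VEGF/LysM and 2 in WT, with upper ends of 0.433 in VEGF/LysM and 0.704 in WT. Thra was lower in the Sdk1- and Chrm3-rich cluster too, at 0.498 times (0.385 to 0.635) the other cells in VEGF/LysM and 0.532 times (0.412 to 0.679) in WT. In the Bgn- and Sema3d-rich cluster Thra stood at 0.874 times (0.696 to 1.09) in VEGF/LysM and 0.910 times (0.757 to 1.09) in WT, both intervals including 1. Its paralog Nr1d2 did not follow it: in capillary-like cells Nr1d2 stood at 14.7 CPM in VEGF/LysM and 21.6 in WT, against 19.2 CPM in the other VEGF/LysM and 21.2 CPM in the other WT endothelial cells.

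Arntl was higher in the Bgn- and Sema3d-rich cluster than in other endothelial cells. Arntl reached 140 UMIs (164 CPM) there in VEGF/LysM, 1.88 times (1.56 to 2.26) its level of 87.1 CPM in the other endothelial cells. In WT it reached 164 UMIs (133 CPM), 1.56 times (1.30 to 1.86) the 85.4 CPM of the other cells. In the Sdk1- and Chrm3-rich cluster Arntl was also higher, at 114 CPM and a ratio of 1.24 (1.02 to 1.501) in VEGF/LysM and at 113 CPM and 1.26 (1.02 to 1.54) in WT. It was the 1 measured member higher in each of these clusters in both libraries, beside 6.26% of all measured genes in the Bgn- and Sema3d-rich and 6.31% in the Sdk1- and Chrm3-rich cluster; Nr1d1 was the 1 member lower in each, beside 7.27% for the Bgn- and Sema3d-rich and 8.32% for the Sdk1- and Chrm3-rich cluster.

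Arntl was lower in tip-like cells, which carry markers of sprouting vessels. It stood there at 63.1 CPM in VEGF/LysM, 0.639 times (0.490 to 0.823) the level of the other cells, and at 52.3 CPM in WT, 0.536 times (0.370 to 0.753). In the Npr3- and Cyp26b1-rich cluster it was lower too, at 60.3 CPM and 0.613 times (0.458 to 0.807) in VEGF/LysM and at 62.9 CPM and 0.649 times (0.476 to 0.866) in WT. Nr1d1 was not high in either type: it had 4 UMIs in VEGF/LysM and 2 in WT tip-like cells, and 9 UMIs in VEGF/LysM and 2 in WT cells of the Npr3- and Cyp26b1-rich cluster. In capillary-like cells, where Nr1d1 was highest, Arntl stood at 87.1 CPM in VEGF/LysM, 0.907 times (0.749 to 1.09) the other cells, and at 92.9 CPM in WT, 0.994 times (0.784 to 1.248). Several of these Nr1d1 counts are small, and a link between Nr1d1 and Arntl over the vessel types was not tested. In tip-like cells and in the Npr3- and Cyp26b1-rich cluster, Arntl was the 1 measured member lower in both libraries. Beside it, 5.49% of all measured genes were lower for tip-like cells and 6.26% for the Npr3- and Cyp26b1-rich cluster.

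**Figure D4:**
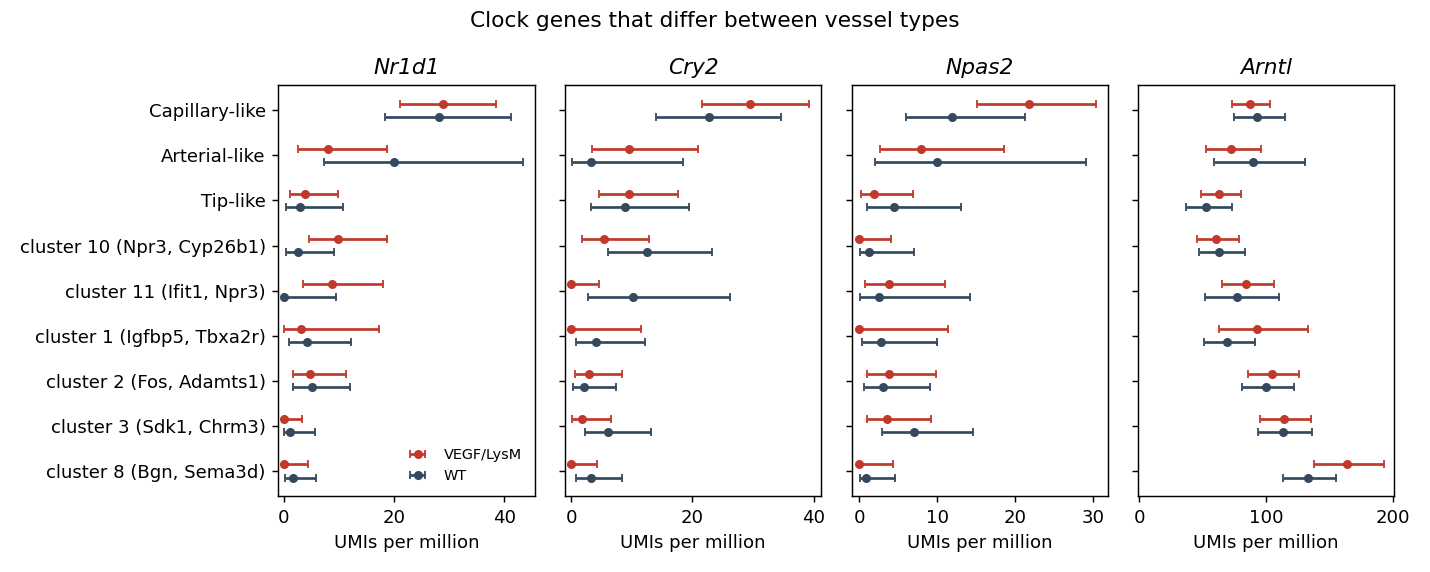
Levels of Nr1d1, Cry2, Npas2 and Arntl in the 9 vessel types, in CPM with exact 95% counting intervals, VEGF/LysM above WT. Nr1d1 stands at 28.8 CPM in VEGF/LysM and 28.1 in WT capillary-like cells, and Arntl peaks in the Bgn- and Sema3d-rich cluster in both libraries.

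Clock, the partner of Arntl, covered a narrower range over the vessel types. It lay between 126 and 173 CPM in VEGF/LysM and between 146 and 207 CPM in WT, highest in the Bgn- and Sema3d-rich cluster in both libraries. Cry1 ran from 10.5 CPM in the Bgn- and Sema3d-rich cluster to 35.1 CPM in arterial-like cells in VEGF/LysM, and from 12.995 CPM in the Bgn- and Sema3d-rich to 25.6 CPM in the Ifit1-rich cluster in WT. The arterial-like value of Cry1 stood 2.03 times (1.23 to 3.20) above other endothelial cells in VEGF/LysM but 1.16 times (0.417 to 2.60) in WT, where it rests on 6 UMIs. Dbp, Per2 and Ciart reached at most 7.68, 8.18 and 3.82 CPM in any vessel type in VEGF/LysM, and 4.14, 5.52 and 3.78 CPM in WT. Each of these rests on fewer than 10 UMIs.

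Between the libraries within a vessel type, 20 combinations of member and type had at least 50 UMIs and 1 passed the fold limit. This was Clock in tip-like cells, with 132 UMIs (126 CPM) in VEGF/LysM and 115 UMIs (172 CPM) in WT, a log2 ratio of -0.44 (-0.82 to -0.07). By the same rule 9.89% of the genes measured in tip-like cells were called, and over the other types the share was 10.8% in arterial-like and 11.8% in capillary-like cells and 13.4%, 9.86%, 9.44%, 11.2%, 9.14% and 11.7% in the 6 Plvap-rich clusters (led by Igfbp5, Fos, Sdk1, Bgn, Npr3 and Ifit1, in that order). Per3 in capillary-like cells had 16 UMIs in VEGF/LysM and 2 in WT, too few for the limit, and Ciart over the 6 Plvap-rich clusters had 0 UMIs in VEGF/LysM and 8 in WT. Both were singled out after their values were seen.

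Further clock genes were set beside the members. Of 17 on the list 14 were measured, and 1 passed the limit between the libraries: Hlf, the third PAR bZIP factor, was lower at 16.1 CPM in VEGF/LysM and 21.2 CPM in WT, a log2 ratio of -0.40 (-0.74 to -0.07). The count is below the 13.4% of all measured genes that passed, and the list's median log2 ratio was -0.02. Hlf did not pass the limit within any vessel type. Its log2 ratio was -0.21 (-0.63 to 0.20) over the 6 Plvap-rich clusters and -0.55 (-1.31 to 0.20) in tip-like cells. In the Npr3- and Cyp26b1-rich cluster it was 0.25 (-0.59 to 1.11). The part of the mix of vessel types in the Hlf value was not tested. Rorb, which had too few UMIs to count as measured and is named here after its values were seen, had 14 UMIs in VEGF/LysM and 32 in WT, a log2 ratio of -1.46 (-2.48 to -0.51). Per1, the Period gene that also answers to glucocorticoids, had 21.0 CPM in VEGF/LysM and 21.5 in WT. Cry2, the second Cryptochrome, had 9.32 CPM in each library. Over the 6 Plvap-rich clusters it had 10 UMIs (1.98 CPM) in VEGF/LysM and 29 (5.69 CPM) in WT, a ratio of 0.349 (0.152 to 0.736). That is too few UMIs for the limit, and it is named here after its values were seen. Capillary-like cells, where Cry2 was highest and Hlf lowest of the vessel types, were 690 of the 3524 VEGF/LysM and 751 of the 5677 WT endothelial cells. Npas2, a stand-in for Clock, had 6.96 CPM in VEGF/LysM and 4.86 in WT, a log2 ratio of 0.52 (-0.10 to 1.15). It too was highest in capillary-like cells, with a log2 ratio there of 0.87 (-0.14 to 2.00). Over the 6 Plvap-rich clusters its log2 ratio was -0.43 (-1.70 to 0.79). Nfil3, the repressor at D-boxes, had 11.7 CPM in VEGF/LysM and 10.8 in WT, and Bhlhe41 had 2 UMIs in VEGF/LysM and 3 in WT.

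Of 8 genes known as outputs of the clock, 7 were measured and 1 passed, beside 13.4% of all measured genes, so the count says nothing of the outputs as a group. Lpin1, a phosphatidate phosphatase of lipid synthesis, was lower at 17.2 CPM in VEGF/LysM and 24.9 CPM in WT, a log2 ratio of -0.53 (-0.85 to -0.22). Usp2 had too few UMIs to count as measured and is named here after its values were seen. It had 9 UMIs in VEGF/LysM and 19 in WT, a log2 ratio of -1.34 (-2.67 to -0.13). The median log2 ratio of the measured outputs was -0.10.

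Cry2 and Npas2 shared the capillary pattern of Nr1d1. Cry2 stood at 29.4 CPM in VEGF/LysM capillary-like cells, 5.84 times (3.71 to 9.26) the other endothelial cells, and at 22.7 CPM in WT, 3.06 times (1.74 to 5.21). Npas2 stood at 21.8 CPM in VEGF/LysM, 5.71 times (3.36 to 9.77), and at 11.9 CPM in WT, 3.08 times (1.37 to 6.48). Hlf ran the other way, at 1.92 CPM and 0.101 times (0.0205 to 0.300) in VEGF/LysM and at 4.32 CPM and 0.183 times (0.0492 to 0.478) in WT capillary-like cells. So did Rora, the activator that competes with the REV-ERBs at RREs, named here after its values were seen: it had 200.4 CPM in VEGF/LysM capillary-like cells, 0.454 times (0.403 to 0.510) the other cells, and 223 CPM in WT ones, 0.420 times (0.363 to 0.483). Beside these, 9.0% of all measured genes were higher and 13.6% lower in capillary-like cells in both libraries.

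Genes whose levels ran most like those of Dbp and Arntl were looked up over 18 groups, the 9 vessel types in each library, which share library, depth and neighbouring cells. For Arntl, Pearson correlations of log2(CPM + 10) were highest with Hs3st1 (0.89), Anxa3 (0.89), Tcf7l1 (0.86), Ccbe1 (0.85) and Arhgap6 (0.84), out of 9035 genes. For Dbp they were Arhgef5 (0.74), Camsap2 (0.74), AC126438.2 (0.74), Ikzf5 (0.71) and Gm26632 (0.71), from levels that rest on a few UMIs per group. Among the members, Arntl correlated at -0.67 with Cry1, -0.53 with Per3, -0.51 with Nr1d2, -0.44 with Dbp and -0.20 with Nr1d1. It correlated at -0.38 with Tef, -0.35 with Ciart, -0.01 with Per2 and 0.21 with Clock. These are descriptions over the groups and carry no test.

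Outside the endothelium, a small group of adrenocortical-like cells (44 in VEGF/LysM, 36 in WT), which make steroid hormones, held far more of the target arm in sum. Most of those UMIs came from Dbp, Nr1d1 and Nr1d2. Dbp had 21 UMIs (76.6 CPM) in VEGF/LysM adrenocortical-like cells, 32.5 times (16.9 to 62.5) its level in VEGF/LysM endothelial cells. It had 5 UMIs (52.6 CPM) in the WT ones, 13.9 times (4.19 to 36.4) its level in WT endothelial cells. The 44 VEGF/LysM adrenocortical-like cells thus held as many Dbp UMIs as all 3524 VEGF/LysM endothelial cells.

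Nr1d1 was likewise higher in those cells, with 27 UMIs (98.5 CPM) in VEGF/LysM, a ratio of 10.7 (6.65 to 16.7) over endothelial cells, and 11 UMIs (116 CPM) in WT, a ratio of 15.3 (7.22 to 29.5). It was the 1 measured member higher in both libraries there, beside 6.04% of all measured genes. Nr1d2 had 24 UMIs (87.6 CPM) in VEGF/LysM, a ratio of 4.75 (2.96 to 7.32), and 4 UMIs (42.0 CPM) in WT, a ratio of 1.98 (0.533 to 5.18). The other target genes had few UMIs there. Tef stood at 1.88 (0.499 to 5.04) in VEGF/LysM and 3.70 (0.434 to 14.2) in WT. Per3 stood at 3.82 (1.34 to 8.91) in VEGF/LysM and 2.16 (0.0533 to 12.8) in WT. Per2 stood at 2.50 (0.494 to 7.86) in VEGF/LysM with 0 UMIs in WT, and Ciart had 0 UMIs in both. Clock was not raised, with ratios of 0.884 (0.623 to 1.22) in VEGF/LysM and 0.739 (0.381 to 1.29) in WT.

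Target genes took 63.9% (55.1 to 72.1) of the UMIs of both arms in VEGF/LysM and 46.9% (32.5 to 61.7) in WT adrenocortical-like cells, an odds ratio of 2.00 (0.977 to 4.10) between the libraries. Arntl had 10 UMIs (36.5 CPM) in VEGF/LysM and 14 UMIs (147 CPM) in WT there, a log2 ratio of -2.01 (-3.34 to -0.74). That is under the 50 UMIs that the fold limit asks for, though the interval lies below 0. These cells also carried endothelial RNA: the 10 endothelial markers summed to 2634 CPM in VEGF/LysM and 4762 CPM in WT adrenocortical-like cells, against 14491 CPM in VEGF/LysM and 14964 CPM in WT endothelial cells. The part of that RNA in the values above was not tested.

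RNA of cortical cells was in turn present among the endothelial cells. The 8 adrenocortical markers summed to 74.0 CPM in VEGF/LysM and 81.6 CPM in WT endothelial cells, which is 1.00% in VEGF/LysM and 1.04% in WT of their level in the adrenocortical-like cells of the same library. At that share, adrenocortical RNA would carry 0.769 CPM of Dbp in VEGF/LysM, where endothelial cells had 2.36, and 0.548 CPM in WT, where they had 3.78. For Nr1d1 it would carry 0.988 CPM in VEGF/LysM and 1.21 CPM in WT, and for the whole target arm 3.11 CPM in VEGF/LysM and 2.52 CPM in WT. The endothelial cells themselves had 49.1 CPM of the target arm in VEGF/LysM and 47.7 CPM in WT. The figures take the adrenocortical-like cells as they are, endothelial RNA included, and the part of free RNA in the endothelial counts was not tested.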

How the data were processed

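Endothelial cells (CD31+ CD45-) sorted from adrenal glands were profiled by 10x Genomics single-cell RNA sequencing, with 1 VEGF/LysM and 1 WT library. The deposited values are raw UMI counts per gene and cell. Cell Ranger 7.0.0 made them per the file headers, while the submitters' processing notes name Cell Ranger 7.0.1, Seurat and mm10. The annotation release, strand and intron settings and the number of mice were not found in these sources. There were 3807 VEGF/LysM barcodes (10323972 UMIs) and 6276 WT barcodes (8606348 UMIs).

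Barcodes under 500 UMIs, under 300 genes or above 15% mitochondrial UMIs were dropped (14 VEGF/LysM, 142 WT). The barcodes with the highest Scrublet scores were left out at 0.8% per 1000 barcodes (116 VEGF/LysM, 315 WT). Both libraries were clustered together with scanpy 1.11.5 (2000 variable genes, 30 components, 15 neighbours, resolution 1, no batch correction), with 35 clock and clock-controlled genes left out. Of 19 clusters, 15 were endothelial. The limits for naming clusters were set after the clusters were seen.

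UMIs were summed per library and cell type. Ratios carry exact conditional binomial intervals and shares exact Clopper-Pearson intervals (scipy 1.17.1). UMIs are molecules, but with 1 library per genotype the intervals describe these libraries and not the genotypes. The calling code was tested on simulated data. All members are described; of further lists (17 clock genes, 8 outputs, 12 glucocorticoid-induced and 13 immediate-early genes) the genes past the fold and Per1, Cry2, Npas2, Nfil3 and Bhlhe41 are named. Members and lists were chosen with earlier results of these data known, and the motif letters after the promoters were seen. Coordinates and gene lengths come from GENCODE M21 (GRCm38), promoter windows from RefSeq (GRCm38.p6). Alternatives covered scaling, filters, doublets, clustering, thinning and the genes of each arm.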

Additional observations from a re-analysis of the deposited data

How the results depend on the processing

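The log2 ratios of the 10 members between VEGF/LysM and WT were recomputed in 120 combinations of member and setting, and 119 stayed within counting error of the reported value. The exception was Tef, at 1.18 with cells thinned to 1000 UMIs. The settings mostly reuse the same UMIs, and those of scaling move all members by the same small amount. The intervals of the rare members are also wide, so this count is a weak check. Over all settings Nr1d1 ran between -0.07 and 0.76, Arntl between -0.09 and 0.09 and Ciart between -0.58 and 0.46, so their signs are not fixed. The odds ratio of target to activator UMIs ran between 0.983 (each library with the same mix of vessel types) and 1.34 (thinned to 1000 UMIs), and its other 14 values stayed within counting error. An alternative added after the data were seen, with the cells of at least 1000 UMIs weighted equally, gave 1.23. The cause of the thinned value was not tested. The odds ratios within vessel types stayed within counting error in all 30 recomputations. The count of members past the limit stayed at 0 higher and 0 lower, except that the fold with no interval gave 2 higher. Equal mixing and equal weighting give no exact interval, so they give no count. The contrasts of Nr1d1, Npas2 and Cry2 in capillary-like cells and of Arntl in tip-like cells, also added after the data were seen, kept their side in 39 of 40 recomputations. The other was Npas2 in WT capillary-like cells with a stricter cell filter, at 2.79 (0.992 to 6.94). The contrasts of the other clusters were not recomputed. No paired analysis was possible because each genotype has 1 library. Depth limits Dbp, Per2, Per3 and Ciart most, with 21 to 87 UMIs over both libraries.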

Other observations

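Of 12 genes known to be induced by glucocorticoids, all 12 were measured in endothelial cells, 2 were higher, 2 were lower and 8 did not pass the limit (a log2 ratio of 0.32 in size with the interval on the same side of 0), beside 6.47% of all measured genes higher and 6.93% lower. Zbtb16, a zinc finger factor, was higher at 112 CPM in VEGF/LysM and 56.1 CPM in WT, a log2 ratio of 1.00 (0.83 to 1.17). Cdkn1a, the cell cycle inhibitor p21, was higher at 232 CPM in VEGF/LysM and 161 CPM in WT, a log2 ratio of 0.52 (0.42 to 0.63). Pdk4, a kinase that restrains glucose oxidation, was lower at 10.9 CPM in VEGF/LysM and 16.1 CPM in WT, and Dusp1, a MAP kinase phosphatase, was lower at 455 CPM in VEGF/LysM and 572 CPM in WT. The median log2 ratio of the list was -0.05.

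Immediate-early genes, which are known to answer to tissue dissociation, included several that were lower in the VEGF/LysM library. Of 13 measured, 6 passed and were lower (Fos, Fosb, Egr1, Dusp1, Nr4a1 and Zfp36), 0 were higher, and 6.93% of all measured genes were lower by the same rule. Egr1 stood at 207 CPM in VEGF/LysM and 351 CPM in WT, a log2 ratio of -0.76 (-0.85 to -0.68), and Fos at 112 CPM in VEGF/LysM and 168 CPM in WT. The 13 summed to 3046 CPM in VEGF/LysM and 3718 CPM in WT. Dusp1 is on both lists. The part of these differences in the values of the clock genes was not tested.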
